A study of Mus musculus with 6 samples.

Results

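The collagen genes are the 44 of 52459 genes in the liver count table whose symbol is Col, a number, a and a number (Col1a1 to Col28a1). They were grouped by the kind of structure their chains form into fibrillar collagens (11 genes), basement membrane collagens (6), beaded filament collagens (7), fibril-associated collagens with interrupted triple helices, or FACIT (9), and the hepatocyte-made Col18a1. The remaining 10 comprised 3 short-chain network collagens, the multiplexin Col15a1, 4 transmembrane collagens, the anchoring fibril collagen Col7a1 and Col26a1, which was left in no class. The rule reads gene symbols and no measured value, and the collagen family was taken up with earlier results of these data known.

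The libraries came from 6 male C57BL6J mice of the Alb-Cre/Cas9 F1 generation, 8 months of age, 1 library per liver. All mice had received an AAV8 vector with a guide RNA behind the U6 promoter at 4 to 5 weeks of age, 100 mg/kg of diethylnitrosamine (DEN, a liver carcinogen) 3 weeks later, and then the CDAHFD, a high-fat diet that lacks choline and causes steatohepatitis and fibrosis, for 6 months. The guide was sgCtrl in mice 5.1, 7.1 and 7.2 and sgPrdx2 in mice 1.1, 1.3 and 3.2, so that the groups differed in the guide and shared genotype, carcinogen and diet. The albumin promoter drives Cre, and hence Cas9, in hepatocytes, whereas most collagen of a fibrotic liver is made by other cells. No untreated liver was analysed here, so the values compare 2 groups of injured livers.

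Collagens are secreted proteins whose chains wind around each other in threes, which takes glycine at regular steps along the chain. In the liver, stellate cells and portal fibroblasts that become myofibroblasts deposit the fibrillar collagens I, III and V as scar, sinusoidal endothelial and stellate cells contribute collagen IV of basement membranes, and hepatocytes are known as the main source of collagen XVIII, whose C-terminal fragment is endostatin. Chains are hydroxylated and folded in the endoplasmic reticulum, trimmed and crosslinked outside the cell, bound by receptors and small proteoglycans, and cut by matrix metalloproteinases.

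The library totals were 37462102 to 56865293 counts, of which collagen genes took 0.227% to 0.443%, and a gene with 3 counts corresponded to 0.0555 to 0.0921 CPM (counts per 1000000 of the library, with library sizes scaled by the TMM method). CPM and fold changes below refer to these scaled libraries, and 17032 genes with enough counts were tested. Prdx2 RNA itself was at 109, 117 and 132 CPM in the sgCtrl livers and 99.0, 112 and 149 CPM in the sgPrdx2 livers, a log2 fold change of 0.01 (SE 0.18, adjusted p = 0.983, edgeR), and thus did not separate the groups. Whether the gene was edited is not shown by the count table. In a principal component analysis of all tested genes the first component (44.9% of the variance) placed sgCtrl livers at -39.4 to -26.0 and sgPrdx2 livers at 10.9 to 61.0, with sgPrdx2 3.2 farthest out. Albumin took 6.61% to 7.01% of counts in sgCtrl livers and 9.28% to 11.3% in sgPrdx2 livers.

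The glycine repeat is the feature that the members share beyond their names, and it differs among the classes. In the annotated coding sequence with the longest reading frame of each gene, codons of the form GGN, which all encode glycine, recurred at a spacing of 3 codons in unbroken runs. The longest run had a median of 338 triplets (range 216 to 344) in the 11 fibrillar genes, 43.5 (39 to 66) in the 6 basement membrane genes, 45 (28 to 87) in the beaded filament genes and 57 (32 to 113) in the FACIT genes, and only 30 in Col18a1. Basement membrane genes had a median of 24 separate runs of at least 5 triplets. The first 18 codons of the longest run are shown for the pair of genes that passed the test and for Col18a1, which had the highest fold change, with the glycine codons in capitals. Col5a2 lies at chr1:45374321-45503282 (minus strand), Col4a1 at chr8:11198423-11312826 (minus strand) and Col18a1 at chr10:77052178-77166548 (minus strand) of GRCm38. The stretches begin at coding bases 631, 3697 and 2857, counted from the A of the start codon.
Col5a2: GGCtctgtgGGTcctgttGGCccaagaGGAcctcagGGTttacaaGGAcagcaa
Col4a1: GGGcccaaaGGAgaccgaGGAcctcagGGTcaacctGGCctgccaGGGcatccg
Col18a1: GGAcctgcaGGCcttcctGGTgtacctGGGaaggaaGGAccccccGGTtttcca

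Taken as a sum, collagen transcripts other than Col18a1 were lower in the sgPrdx2 livers, while Col18a1 was higher in each of them. Summed over the 43 other members, the level was 2249, 3088 and 2918 CPM in the sgCtrl livers and 1873, 1873 and 1760 CPM in the sgPrdx2 livers, a ratio of the means of 0.667. Col18a1 was at 587, 861 and 822 CPM in the sgCtrl livers and 1257, 1182 and 1056 CPM in the sgPrdx2 livers, a ratio of 1.54. Neither of these values overlapped between the groups. With Col18a1 included, the sum over all members was 2836 to 3949 CPM against 2816 to 3130 CPM, and the groups overlapped. In whole liver RNA, fewer cells of a type and less RNA per cell cannot be told apart.

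Of the 44 collagen genes, 34 passed the filter on low counts and were tested, of which 26 had a log2 fold change below 0, where 51.7% of all tested genes did. A member could pass that filter through either group. At an adjusted p under 0.05 (edgeR quasi-likelihood test, Benjamini-Hochberg adjustment over all tested genes), 2 members fell, Col5a2 and Col4a1, and the background of genes called lower was 1.54%. No member was called higher, against a background of 1.79%. At an unadjusted p under 0.05, 16 members were lower (background 11.9%) and 1, Col18a1, was higher (background 13%). In 15 members every sgPrdx2 liver was below every sgCtrl liver (background 17.5%), and in 1 every sgPrdx2 liver was above (background 16.7%). The median log2 fold change of the tested members was -0.43, beside -0.02 for all tested genes. The counts by class below stand beside the same backgrounds of 51.7% below 0, 1.54% called lower and 17.5% lower without overlap. With DESeq2 in place of edgeR, 9 members were called lower (background 5.9%) and Col18a1 was called higher (background 7.89%).

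**Figure D1:**
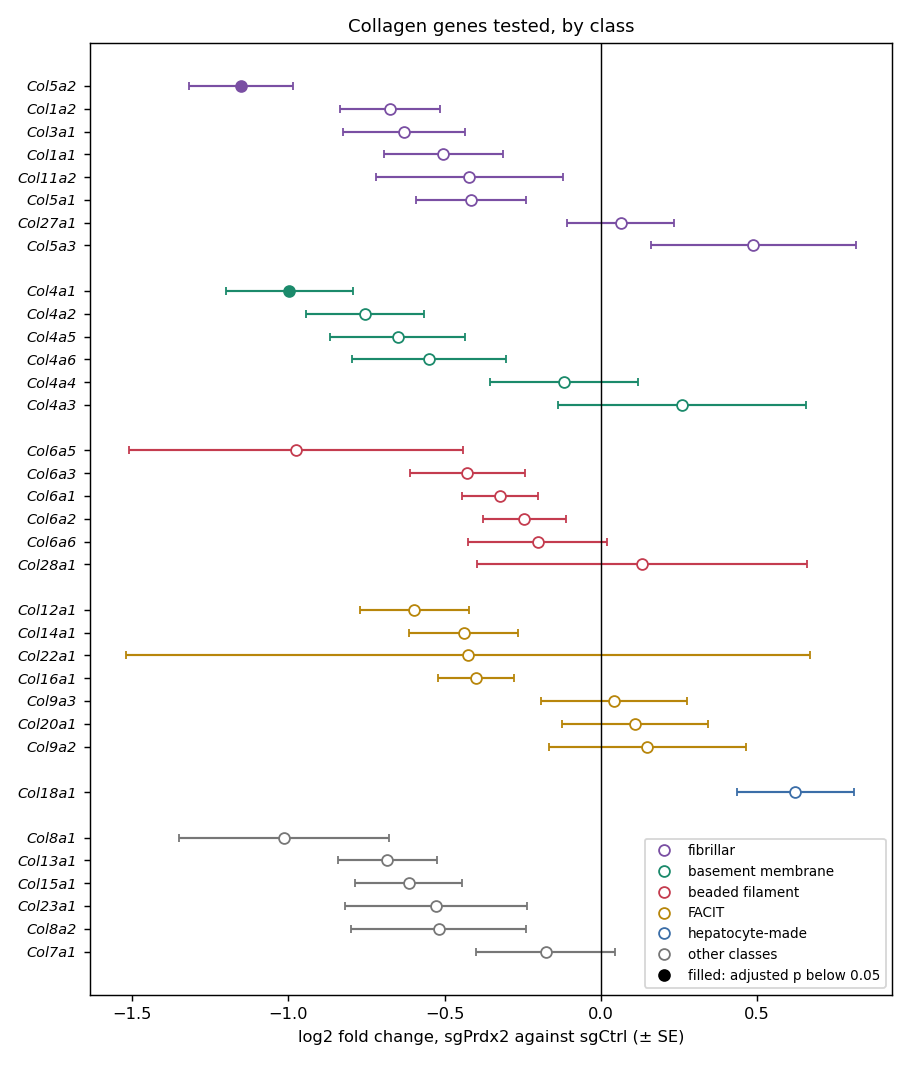
The log2 fold change of sgPrdx2 against sgCtrl livers (x axis) for each of the 34 tested collagen genes (y axis), with bars of 1 SE and colours for the classes. Filled points mark an adjusted p under 0.05, reached by Col5a2 and Col4a1, and 26 of the points lie left of 0.

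How the libraries are scaled bears on these counts. Hepatocyte transcripts took a larger part of the sgPrdx2 libraries, and the TMM factors ran from 1.12 to 1.17 for sgCtrl and from 0.805 to 0.951 for sgPrdx2 livers. Without these factors, on total counts alone, the median log2 fold change of all tested genes moved from -0.02 to -0.39, and 3041 of 3247 called genes were lower, in place of 262 of 567. Collagen genes were read relative to that shift, with a median of -0.78 and 17 called lower on total counts, where 17.9% of all tested genes were called lower, and Col18a1 kept a positive log2 fold change of 0.26 (adjusted p = 0.301).

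Fibrillar collagens, the load-bearing chains of scar, had 8 of 11 genes tested, 6 of them with a log2 fold change below 0 and 1 called lower, with a median of -0.46. Col5a2, a chain of collagen V, which sits inside type I fibrils and controls their width, was at 90.4, 81.2 and 115 CPM in the sgCtrl livers and 38.4, 43.6 and 47.0 CPM in the sgPrdx2 livers. The highest sgPrdx2 liver lay below the lowest sgCtrl liver, and the log2 fold change was -1.15 (SE 0.17, adjusted p = 0.0355, edgeR), or 0.450-fold. Only 1.36% of all tested genes had a lower log2 fold change. The call was absent without sgCtrl 5.1 (adjusted p = 0.118), sgCtrl 7.2 (0.143), sgPrdx2 1.1 (0.143) or sgPrdx2 1.3 (0.0773), fits in which no gene of the whole table was called, although 3114 to 3993 genes in each had an unadjusted p under 0.05, and the log2 fold change over the livers left out in turn was -1.26 to -0.997.

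Col3a1, the chain of type III collagen, had the highest level of the class. It was at 522, 858 and 736 CPM in the sgCtrl livers and 470.5, 456 and 440.4 CPM in the sgPrdx2 livers, which did not overlap, and its log2 fold change of -0.63 (SE 0.20) did not pass the test (adjusted p = 0.109). Col1a2, the second chain of type I collagen, was at 273, 379 and 348 CPM against 207, 198 and 220.5 CPM, also without overlap, with a log2 fold change of -0.67 (SE 0.16, adjusted p = 0.0612). For Col1a1, the main chain of type I collagen, the values were 245, 363 and 334 CPM against 200.2, 207 and 257 CPM, so that sgPrdx2 3.2 lay above sgCtrl 5.1, with a log2 fold change of -0.50 (SE 0.19, adjusted p = 0.156). With each liver left out in turn, Col1a1, Col1a2 and Col3a1 were never called, with adjusted p (edgeR) of 0.109 to 0.347, 0.0683 to 0.192 and 0.118 to 0.252. Without both sgCtrl 5.1 and sgPrdx2 3.2, a pair chosen after seeing the data, they had adjusted p of 0.0429, 0.0400 and 0.0476. These livers lie at the ends of the first principal component and are those in which Col1a1 overlapped. In that fit 6 members were called lower in all, against a background of 1.61%.

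Neither of the other collagen V chains passed the test. Col5a1 had a log2 fold change of -0.42 (SE 0.18, adjusted p = 0.192), with 38.0 to 56.8 CPM against 30.9 to 39.1 CPM. Col5a3, a chain of a less common form of collagen V, was at 22.3, 58.6 and 35.5 CPM in the sgCtrl livers and 64.5, 56.4 and 42.2 CPM in the sgPrdx2 livers, with a log2 fold change of 0.49 (SE 0.33, adjusted p = 0.388). The sgCtrl livers alone spanned more than the difference of the group means. Of the minor fibrillar collagens, Col27a1 had a log2 fold change of 0.06 (SE 0.17) and Col11a2 of -0.42 (SE 0.30). The cartilage collagens Col2a1 and Col11a1, with 5 and 3 counts in all 6 livers together, and Col24a1, with 36 counts, were not tested.

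The promoter of Col3a1 is shown because Col3a1 and Col5a2 are neighbours, transcribed toward each other from opposite strands of chromosome 1 with 24614 bases between the annotated genes, and Col3a1 was the most abundant fibrillar transcript. RefSeq promoter windows (250 bases before to 50 after a start, GRCm38.p6) were at hand for 35 of the 44 members, in 38 windows, and not for 9, Col1a1 and Col5a2 among them. The 250 bases before the start of Col3a1, chr1:45311288-45311537 on the plus strand, hold TATAAA once, at 117 bases before the start, and CAGAC, the core of the Smad-binding element, on each strand, as CAGAC and GTCTG. These are in capitals.
Col3a1: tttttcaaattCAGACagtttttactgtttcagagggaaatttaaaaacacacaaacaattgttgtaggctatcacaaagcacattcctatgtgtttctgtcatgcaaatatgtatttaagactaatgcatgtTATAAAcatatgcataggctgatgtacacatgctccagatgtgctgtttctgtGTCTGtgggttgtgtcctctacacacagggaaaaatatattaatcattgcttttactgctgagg

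Both motifs were searched on both strands of the 300-base windows, and were about as frequent among the members as among all promoters. TATAAA was in 13.2% of the 38 member windows and 13.6% of 32851 windows, and CAGAC in 52.6% and 49.6%. CCAAT was in 34.2% and 37.4%. The GC box GGGCGG was in 60.5% of the member windows and 35.7% of all windows. These shares are a description of letters in a window, and no test was made of them.

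Basement membrane collagens, which form the sheets under epithelia and around vessels and line the sinusoid as fibrosis advances, were all tested, and 5 of 6 had a log2 fold change below 0, with a median of -0.60 and 1 gene called lower. Col4a1, the major chain, was at 219, 286 and 337 CPM in the sgCtrl livers and 149.5, 158 and 115 CPM in the sgPrdx2 livers. These values did not overlap, and the log2 fold change was -0.997 (SE 0.20, adjusted p = 0.0466, edgeR), or 0.501-fold. That call did not hold without any 1 of the 6 livers, with an adjusted p of 0.118 without sgCtrl 5.1, 0.0847 without sgCtrl 7.1, 0.162 without sgCtrl 7.2, 0.150 without sgPrdx2 1.1, 0.0881 without sgPrdx2 1.3 and 0.0624 without sgPrdx2 3.2, while the log2 fold change was -1.15 to -0.84. The adjusted p was 0.0368 (edgeR) without sgCtrl 5.1 and sgPrdx2 3.2 together, a pair chosen after seeing the data. In that fit the median of the class was -0.31.

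Col4a2, the chain that joins Col4a1 in the common heterotrimer, was at 157.5, 202 and 257 CPM against 121, 128 and 117 CPM, without overlap, at a log2 fold change of -0.76 (SE 0.19, adjusted p = 0.0678). Col4a5, a chain of kidney-type basement membrane, was at 25.2, 26.2 and 22.1 CPM against 18.2, 18.2 and 10.4 CPM, again without overlap, at -0.65 (SE 0.22, adjusted p = 0.125). Col4a6 had a log2 fold change of -0.55 (SE 0.25). Col4a3, which forms the glomerular network with Col4a4 and Col4a5, was at 4.29, 4.16 and 4.07 CPM in the sgCtrl livers and 5.95, 6.97 and 1.97 CPM in the sgPrdx2 livers. The sgPrdx2 values lay on both sides of the sgCtrl values, and its log2 fold change of 0.26 (SE 0.40, adjusted p = 0.711) turned to -0.08 on total counts and to -0.05 without sgPrdx2 1.3. Its neighbour Col4a4 was at -0.12 (SE 0.24). Part of Col4a3 (5.65% of its annotated exon bases) overlaps another gene on the opposite strand, and whether counting used strand is not given in the sources used here.

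The collagen IV genes lie in head-to-head pairs. The annotated starts of Col4a1 and Col4a2 overlap by 22 bases on chromosome 8, so that 1 stretch of DNA serves as the start region of both genes. The starts of Col4a3 and Col4a4 are 72 bases apart, and those of Col4a5 and Col4a6 are 1309 bases apart. The 30 bases around the Col4a1 and Col4a2 starts, chr8:11312801-11312830 on the plus strand of GRCm38, are printed with the first transcribed base of each gene in capitals, that of Col4a2 (plus strand) first and that of Col4a1 (minus strand) second.
Col4a1 and Col4a2 starts: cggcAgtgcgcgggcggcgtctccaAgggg

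Beaded filament collagens, which form the fine collagen VI network around cells, had 6 of 7 genes tested, 5 with a log2 fold change below 0 and none called, with a median of -0.28. Col6a1 was at 88.7, 86.9 and 78.9 CPM in the sgCtrl livers and 64.0, 69.7 and 69.8 CPM in the sgPrdx2 livers. Col6a2 was at 66.2, 62.8 and 62.7 CPM against 48.4, 51.8 and 61.6 CPM, and Col6a3 at 151, 218 and 174 CPM against 145.5, 146 and 112 CPM. In each of these chains, which assemble with each other, every sgPrdx2 liver lay below every sgCtrl liver, by log2 fold changes of -0.32 (SE 0.12), -0.24 (SE 0.13) and -0.43 (SE 0.18) with adjusted p of 0.155, 0.291 and 0.198. None passed the test. Col6a5 and Col6a6, alternative chains that share 3.42% and 3.54% of their 50-base stretches with each other or other genes, were at -0.98 (SE 0.53) and -0.20 (SE 0.22), and Col28a1 at 0.13 (SE 0.53). Col6a4, with 4 counts in all, was not tested.

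FACIT collagens, which decorate the surface of fibrils, had 7 of 9 genes tested, 4 with a log2 fold change below 0 and none called, with a median of -0.40. That median was 0.06 without sgCtrl 7.2, the liver with 192 of the 362 counts of Col22a1. Col14a1, the most abundant of the class, was at 155, 197 and 179 CPM in the sgCtrl livers and 148, 139.5 and 104.5 CPM in the sgPrdx2 livers, a log2 fold change of -0.44 (SE 0.17, adjusted p = 0.172). Col16a1 was at 25.4, 27.6 and 31.0 CPM against 21.0, 20.3 and 22.4 CPM (-0.40, SE 0.12, adjusted p = 0.104). Col12a1 was at 9.82, 10.97 and 10.2 CPM against 7.70, 7.40 and 5.31 CPM (-0.60, SE 0.18, adjusted p = 0.0951). The groups did not overlap in any of these genes, and none passed the test. Col9a2, Col9a3 and Col20a1 were at 0.15 (SE 0.32), 0.04 (SE 0.23) and 0.11 (SE 0.23), and Col22a1 at -0.42 (SE 1.09). Col9a1, with 8 counts in all, and Col19a1, with none, were not tested.

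Col18a1, the multiplexin of basement membranes that hepatocytes are known to make, had the highest log2 fold change of the 34 tested members, at 0.62 (SE 0.19, adjusted p = 0.0998, edgeR), above 91.0% of all tested genes. The lowest sgPrdx2 liver (1056 CPM) lay above the highest sgCtrl liver (861 CPM). Its log2 fold change stayed positive in each of the 14 alternative fits, at 0.26 to 0.72, and passed the test in 1 of them, DESeq2 (adjusted p = 0.0119). These libraries hold all cells of the liver, so which cells the Col18a1 counts came from was not measured.

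Hepatocyte markers were also higher in the sgPrdx2 livers. The summed CPM of the 8 markers (Alb, Ttr, Apoa1, Tat, Cyp2e1, Cps1, Hnf4a and Serpina1b) was 78040 to 84010 in the sgCtrl livers and 134600 to 181600 in the sgPrdx2 livers. All 8 had a log2 fold change above 0, 5 of them called higher beside the background of 1.79%, with a median of 0.97, and none of the markers was at 0 in every liver. Alb took 58810 to 62570 and 97610 to 128000 CPM of these sums. The sgCtrl livers stood in the same order by marker sum as by Col18a1. The sgPrdx2 livers did not, as sgPrdx2 3.2 had the highest sum (181600) and the lowest Col18a1 (1056 CPM). The part of these markers in the result for Col18a1 was not tested.

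Col18a1 has more than 1 annotated start, and the gene counts do not separate the transcripts that begin at each. A promoter of this gene is shown because the members' highest fold change belongs to it. The window of the start farther downstream holds CAGAC and neither CCAAT nor the GC box. The 30 bases extracted before that start all lie in annotated exons. Which start the counts came from was not measured. The sequence printed is the one before the start farther upstream. In the 250 bases before it, chr10:77166531-77166780 read along the minus strand of GRCm38.p6 (the last 18 lie in an exon of the GENCODE annotation), the GC box occurs as CCGCCC, its reverse complement, at 61, 43 and 33 bases before the start, and CCAAT as ATTGG at 210 bases. These motifs are in capitals.
Col18a1: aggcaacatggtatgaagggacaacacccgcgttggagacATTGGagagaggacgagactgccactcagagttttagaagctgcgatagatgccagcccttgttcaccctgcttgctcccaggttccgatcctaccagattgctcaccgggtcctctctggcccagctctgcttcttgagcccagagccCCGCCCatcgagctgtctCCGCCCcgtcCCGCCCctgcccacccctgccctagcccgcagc

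Among the other classes, 6 of 10 genes were tested, all with a log2 fold change below 0 and none called. Col15a1, the other multiplexin, found in vessel basement membranes, was at 60.4, 82.8 and 62.9 CPM in the sgCtrl livers and 48.8, 47.8 and 37.9 CPM in the sgPrdx2 livers, without overlap and opposite in sign to Col18a1 (-0.62, SE 0.17, adjusted p = 0.0848). Col8a1, a short-chain collagen of vessel walls and activated stellate cells, was at 8.59, 16.3 and 9.38 CPM against 7.29, 6.18 and 3.41 CPM, without overlap (-1.01, SE 0.33, adjusted p = 0.123). Its partner Col8a2 was at 3.59, 2.76 and 2.19 CPM against 2.37, 2.16 and 1.38 CPM, with overlap (-0.52, SE 0.28). Col13a1, a transmembrane collagen, was at 7.52, 6.70 and 7.80 CPM against 4.94, 4.71 and 4.02 CPM, also without overlap (-0.68, SE 0.16, adjusted p = 0.0583).

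Col23a1, another transmembrane collagen, was at 3.27, 1.67 and 1.96 CPM against 1.46, 1.52 and 1.81 CPM (-0.53, SE 0.29), and Col7a1, which anchors epithelia, at 1.49, 1.22 and 1.67 CPM against 1.28, 1.37 and 1.23 CPM (-0.18, SE 0.22). Both overlapped between the groups. Col25a1 was too low to test, at 0.0685, 0.178 and 0.114 CPM against 0.251, 0.444 and 0.0307 CPM, as was Col17a1 with 42 counts in all. Col10a1, the growth-plate collagen, and Col26a1 had no count in any liver. At 3 counts, the limit that a count of 0 allows, this leaves levels of up to 0.0921 CPM in the library of lowest effective size, for counting error only.

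**Figure D2:**
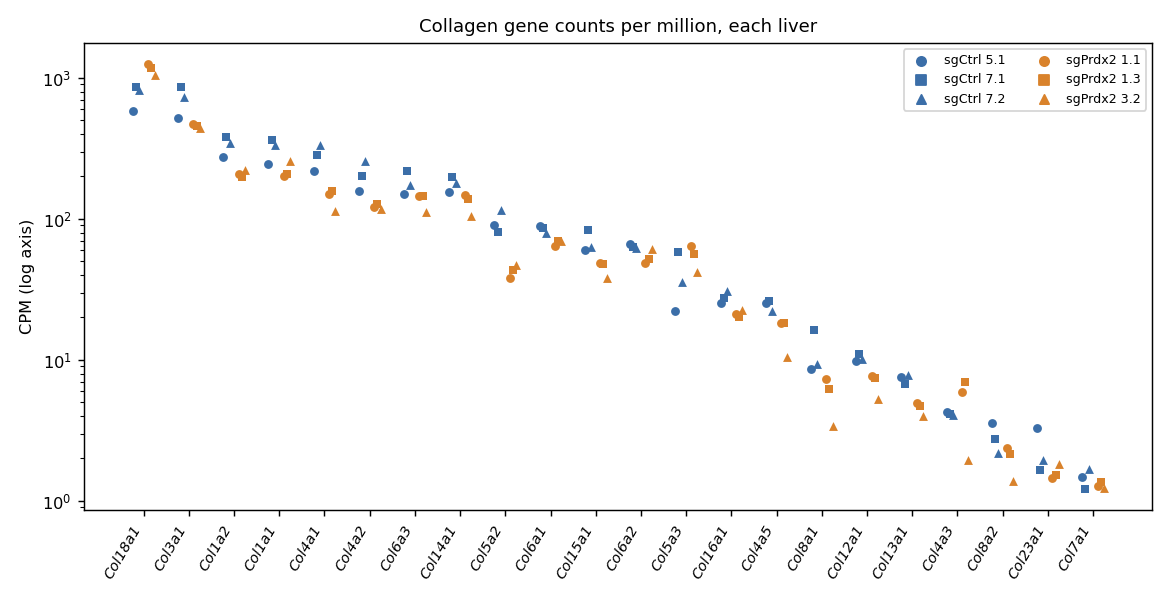
CPM on a log axis in each of the 6 livers (blue, sgCtrl; orange, sgPrdx2; 1 symbol per mouse) for the 22 tested collagen genes described by liver, ordered by their mean in sgCtrl livers. Col18a1 (1056 to 1257 CPM in sgPrdx2 livers) is the only one with every sgPrdx2 point above every sgCtrl point.

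Per kilobase of transcript, which allows levels to be compared between genes, Col18a1 and Col3a1 were the most abundant collagen transcripts. In the sgCtrl livers they had mean levels of 135 and 127 CPM per kilobase, with ranges of 105 to 154 and 93.8 to 154 that overlapped almost whole. In the sgPrdx2 livers they stood at 208 and 81.9 CPM per kilobase, and their ranges (189 to 225 and 79.2 to 84.6) were apart. Below them in the sgCtrl livers came Col1a2 (62.3), Col1a1 (52.97), Col4a1 (42.4), Col4a2 (31.9), Col14a1 (27.4), Col6a1 (20.7), Col6a3 (20.1), Col6a2 (16.2), Col5a2 (14.4) and Col15a1 (13.3), as group means in CPM per kilobase. Of the neighbours in this order, Col14a1 and Col6a1, and by a narrow margin Col6a3 and Col6a2, had ranges over livers that did not overlap. Compared within each sgCtrl liver, Col1a2, Col1a1, Col4a1, Col4a2, Col14a1 and Col6a1 stood in this order every time. Col6a3 was likewise above Col6a2 in each. The order of Col6a1 and Col6a3, of Col6a2 and Col5a2, and of Col5a2 and Col15a1 differed between sgCtrl livers and is not resolved. In the sgPrdx2 livers the means of Col14a1 (20.2) and Col4a2 (18.9) and those of Col15a1 (8.67) and Col5a2 (6.49) stood in the reverse order. The spread over members was wide, and 17 of the 44 had a mean of at least 10 CPM. Both called genes and 12 of the 15 genes that were lower without overlap were among these 17.

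Within the collagen counts of a liver, which do not depend on the scaling of libraries, Col18a1 took 20.7%, 21.8% and 21.98% in the sgCtrl livers and 40.1%, 38.7% and 37.5% in the sgPrdx2 livers, a mean of 21.5% ± 0.70 against 38.8% ± 1.33 (SD, n = 3 each). The fibrillar share was 44.6% ± 1.55 against 35.2% ± 2.39 and the basement membrane share 15.2% ± 1.73 against 9.85% ± 0.857, both without overlap. The FACIT share was 6.39% ± 0.474 against 5.49% ± 0.477, without overlap, and the beaded filament share 9.69% ± 1.25 against 8.69% ± 0.302, with overlap. These shares are given with no test, and all include Col18a1 in their total. Of the collagen counts other than Col18a1, the fibrillar share was 56.8% ± 2.29 in sgCtrl and 57.4% ± 2.88 in sgPrdx2 livers and the FACIT share 8.13% ± 0.530 and 8.99% ± 0.951, both with overlap. The basement membrane share of those counts was 19.3% ± 2.26 and 16.1% ± 1.56, with overlap, and the beaded filament share 12.3% ± 1.49 and 14.2% ± 0.287, with the sgPrdx2 livers above by a narrow margin (13.95% against 13.94% at the nearest). In CPM, the fibrillar sum ran from 1230 to 1828 in sgCtrl and from 1035 to 1069 in sgPrdx2 livers, and the basement membrane sum 424 to 636 and 254 to 328. The ratios of the class means were 0.557 for basement membrane, 0.672 for fibrillar, 0.744 for FACIT and 0.777 for beaded filament collagens, and the differences among these ratios were not tested.

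**Figure D3:**
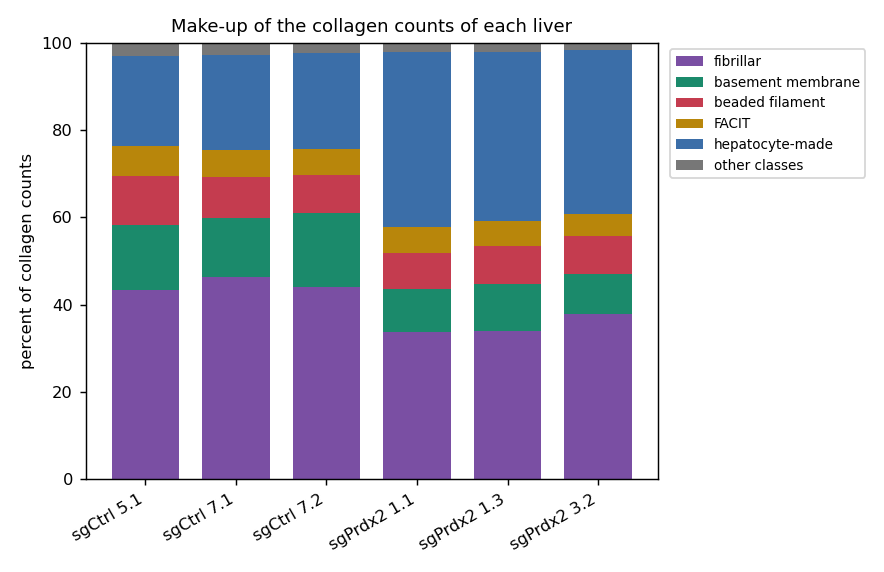
Stacked bars of the percent of each liver's collagen counts (y axis, 0 to 100) taken by the fibrillar, basement membrane, beaded filament, FACIT, hepatocyte-made and other classes, 1 bar per liver. The hepatocyte-made share (Col18a1, blue) is 20.7% to 21.98% in the sgCtrl and 37.5% to 40.1% in the sgPrdx2 livers.

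Chains that are built into the same or neighbouring structures were also compared as log2 ratios of counts within a liver, for 10 pairs, with two-sided exact permutation tests over the 20 ways of dividing 6 livers, for which 0.1 is the smallest p. In 4 pairs the groups did not overlap, each with an exact p of 0.1 and 0.25 after adjustment over the 10 pairs. Col15a1/Col18a1 had the largest difference, with a mean log2 ratio of -3.46 in sgCtrl and -4.70 in sgPrdx2 livers, a difference of -1.25 that stayed between -1.38 and -1.16 without any 1 liver. Col1a1/Col4a1, scar against basement membrane, went from 0.17 to 0.66, a difference of 0.50 that was 0.24 without sgPrdx2 3.2 and 0.41 to 0.63 without any other liver. Of chains that share a molecule, Col4a1/Col4a2 went from 0.46 ± 0.06 to 0.19 ± 0.19 (difference -0.26, and -0.15 without sgPrdx2 3.2), and Col1a1/Col1a2 from -0.09 ± 0.06 to 0.08 ± 0.14 (difference 0.17, and 0.10 without sgPrdx2 3.2). For Col1a1/Col1a2 the groups were apart by a narrow margin (sgPrdx2 1.1 at -0.0505 and sgCtrl 7.2 at -0.0563).

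Col5a1/Col5a2 had a mean log2 ratio of -0.99 ± 0.41 in sgCtrl and -0.25 ± 0.32 in sgPrdx2 livers (SD, n = 3 each), a difference of 0.74 with an exact permutation p of 0.2, and the groups overlapped because sgCtrl 7.1 was at -0.52 and sgPrdx2 3.2 at -0.60. In the other 5 pairs (Col3a1/Col1a1, Col4a3/Col4a4, Col4a5/Col4a1, Col6a1/Col6a2 and Col6a3/Col6a1) the differences were between -0.11 and 0.29 and the groups overlapped. Per kilobase, Col1a1 stood to Col1a2 at a mean ratio of 0.847 in sgCtrl and 0.952 in sgPrdx2 livers, and Col4a1 to Col4a2 at 1.34 and 1.12.

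**Figure D4:**
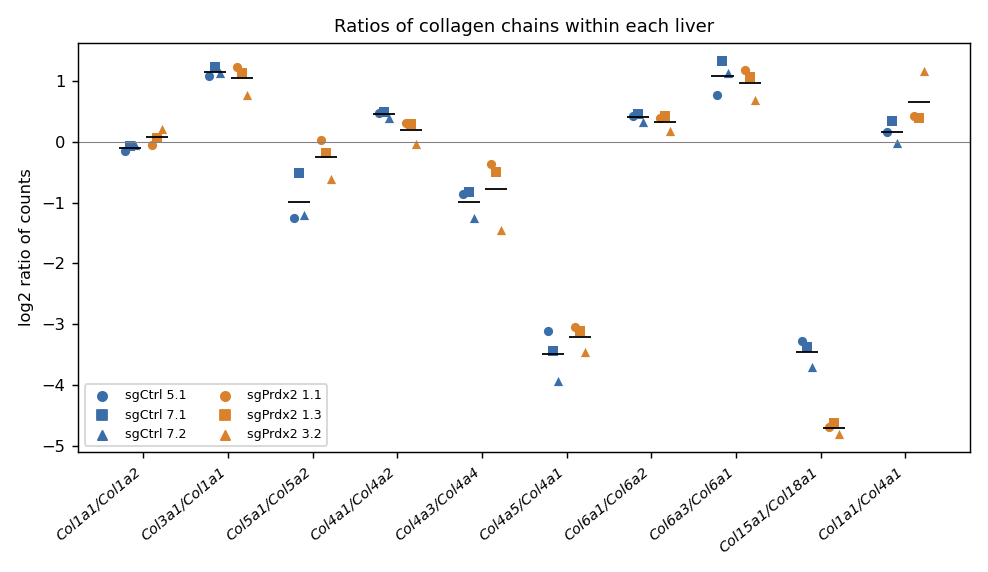
The log2 ratio of counts of 2 collagen chains (y axis) within each of the 6 livers for 10 pairs (x axis), with a line at each group mean. Col15a1/Col18a1 shows the largest gap between sgCtrl (mean -3.46) and sgPrdx2 livers (mean -4.70), and 6 of the pairs overlap.

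Genes that act on collagen were read from 5 lists. For the counts that follow, 51.7% of all tested genes had a log2 fold change below 0 and 1.54% were called lower. The background without overlap between the groups was 17.5% lower and 16.7% higher. Enzymes and chaperones that modify and fold the chains had 18 genes tested, 15 with a log2 fold change below 0 and none called, with a median of -0.22. P4ha1, a catalytic subunit of prolyl 4-hydroxylase, was at 28.0, 22.9 and 25.6 CPM in the sgCtrl livers and 17.7, 17.1 and 17.4 CPM in the sgPrdx2 livers, without overlap (-0.55, SE 0.12, adjusted p = 0.0526). Plod2, a lysyl hydroxylase, was at 8.27, 9.16 and 7.89 CPM against 5.81, 6.66 and 4.33 CPM, without overlap (-0.59, SE 0.19, adjusted p = 0.116). Of the 12 genes that remove propeptides and crosslink fibrils, 10 were tested, 8 with a log2 fold change below 0 and none called, with a median of -0.39. Lox, the lysyl oxidase that starts crosslinks, was at 5.55, 12.2 and 9.13 CPM against 4.72, 4.59 and 3.44 CPM (-1.07, SE 0.29, adjusted p = 0.0790), and Loxl2, its relative, at 14.8, 20.2 and 21.4 CPM against 12.5, 12.8 and 8.23 CPM (-0.75, SE 0.21, adjusted p = 0.0911). Neither overlapped between the groups. A pair of genes chosen after their values were seen had log2 fold changes above 0. Ppib, a prolyl isomerase that folds collagen chains, was at 293, 311 and 419 CPM against 435, 414 and 731 CPM, with overlap (0.63, SE 0.26, adjusted p = 0.181), the highest of the folding list. Bmp1, which removes C-terminal propeptides, was at 70.2, 96.9 and 89.1 CPM against 113, 104 and 99.2 CPM, higher in every sgPrdx2 liver (0.30, SE 0.16, adjusted p = 0.264).

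Fibril partners had 11 of 12 genes tested, 8 with a log2 fold change below 0 and none called, with a median of -0.31. Thbs1 and Thbs2, matricellular thrombospondins, were at 26.9, 31.4 and 25.8 CPM against 13.03, 15.96 and 6.82 CPM (-1.23, SE 0.28, adjusted p = 0.0561), and at 36.6, 34.4 and 29.2 CPM against 20.6, 25.0 and 17.8 CPM (-0.66, SE 0.16, adjusted p = 0.0635). Both were lower in every sgPrdx2 liver than in every sgCtrl liver.

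Collagen receptors had 9 of 10 genes tested, all with a log2 fold change below 0 and 2 of them called lower, beside the background of 1.54%, with a median of -0.35. Lair1, an inhibitory collagen receptor of immune cells, was at 31.7, 23.4 and 30.7 CPM in the sgCtrl livers and 15.8, 15.3 and 14.5 CPM in the sgPrdx2 livers (-0.91, SE 0.15, adjusted p = 0.0358, edgeR). Ddr1, a collagen-binding receptor tyrosine kinase of epithelial cells, was at 54.6, 57.5 and 63.1 CPM against 34.2, 42.0 and 37.6 CPM (-0.62, SE 0.13, adjusted p = 0.0480, edgeR). Neither gene overlapped between the groups. The call of Lair1 was lost without sgCtrl 5.1, sgCtrl 7.2, sgPrdx2 1.1 or sgPrdx2 1.3 (adjusted p of 0.119, 0.143, 0.144 and 0.0805), the fits in which no gene of the whole table was called, and that of Ddr1 without any 1 of the 6 livers (0.124, 0.0877 and 0.173 without sgCtrl 5.1, 7.1 and 7.2 and 0.165, 0.0843 and 0.0537 without sgPrdx2 1.1, 1.3 and 3.2). Over the livers left out in turn, the log2 fold change was -1.04 to -0.83 for Lair1 and -0.68 to -0.55 for Ddr1.

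Genes of collagen breakdown, proteases and their inhibitors alike, had all 10 tested, all with a log2 fold change below 0 and 1 called lower, with a median of -0.39, beside backgrounds of 51.7% below 0 and 1.54% called lower. Mmp13, the interstitial collagenase of rodents, was at 5.92, 4.58 and 5.50 CPM in the sgCtrl livers and 2.60, 1.55 and 2.03 CPM in the sgPrdx2 livers, without overlap, and fell by 1.37 on the log2 scale (SE 0.23, adjusted p = 0.0384, edgeR). Its call was lost without sgCtrl 5.1, sgCtrl 7.2, sgPrdx2 1.1 or sgPrdx2 1.3 (adjusted p of 0.119, 0.143, 0.142 and 0.0788), the same fits without a call in the table, and its log2 fold change over the livers left out in turn was -1.58 to -1.18. Mmp14, which activates other collagenases, was at -0.17 (SE 0.12), and the inhibitors Timp1, Timp2 and Timp3 at -0.27 (SE 0.23), -0.45 (SE 0.14) and -0.79 (SE 0.26).

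**Figure D5:**
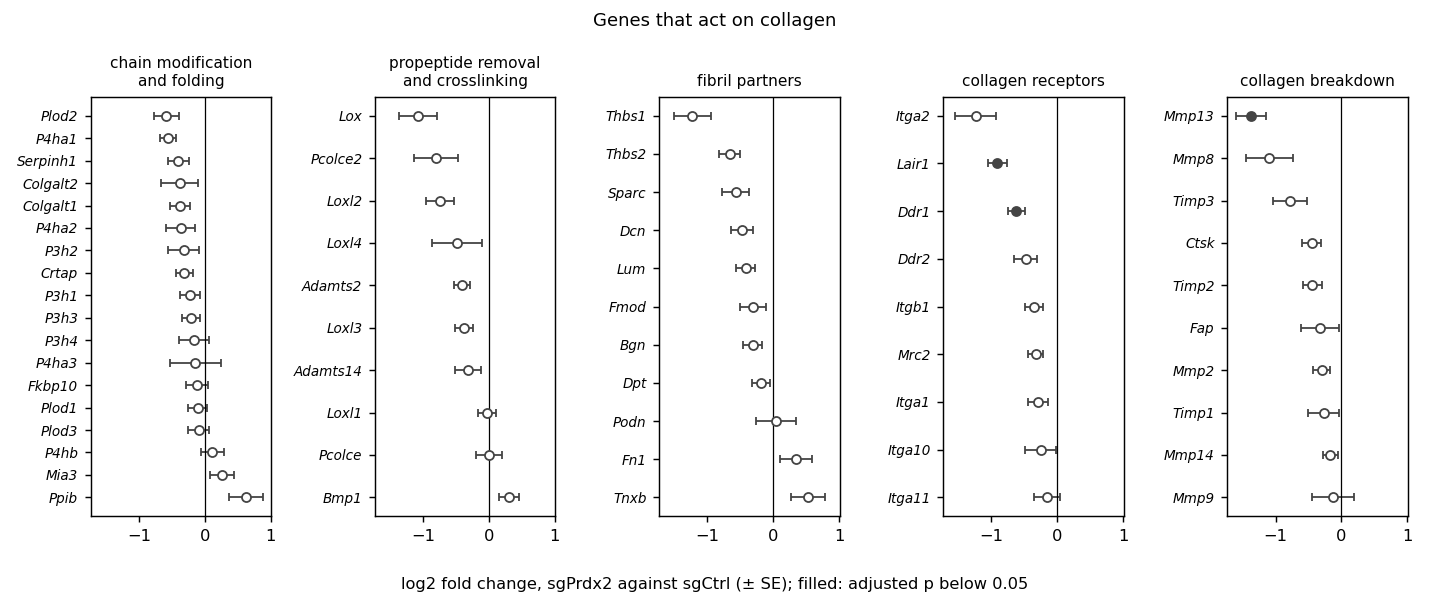
The log2 fold change of sgPrdx2 against sgCtrl livers (x axis, bars of 1 SE) for the tested genes of 5 lists of genes that act on collagen. Filled points mark an adjusted p under 0.05, which Lair1, Ddr1 and Mmp13 reached, all below 0.

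Sums over markers of other liver cells were lower in the sgPrdx2 livers or overlapped between the groups. For the counts that follow, the background was 51.7% of all tested genes with a log2 fold change below 0, 1.54% called lower and 17.5% lower without overlap. The summed CPM of 8 myofibroblast markers, 2 of which (Lox and Timp1) are also in the lists above, was 202 to 235 in the sgCtrl and 117 to 140 in the sgPrdx2 livers, with all 8 log2 fold changes below 0 and 1 called lower. The sum of 10 stellate cell markers was 410 to 431.5 and 335 to 399, with 7 of 10 below 0, none called and a median log2 fold change of -0.12. The sum of 8 portal fibroblast and smooth muscle markers was 153 to 182 and 103.5 to 127, with all 8 below 0 and none called. Of these, 1 (Myh11) was lower without overlap, and the others overlapped between the groups. Eln, the most abundant of them, was at 49.5, 122 and 99.0 CPM against 62.9, 60.2 and 58.1 CPM. Macrophage markers summed to 1941 to 2500 and 1256 to 1381 (8 of 8 below 0, 2 called lower) and cholangiocyte markers to 1713 to 1966 and 1284 to 1468 (8 of 8 below 0, none called). Most of the cholangiocyte sum was Spp1 (1492 to 1707 and 1080 to 1258 CPM), and Krt19, Krt7, Sox9 and Krt23 overlapped between the groups. Endothelial sums overlapped (244 to 265 and 168 to 247, 7 of 8 below 0 with 1 called lower), as did mesothelial sums (42.5 to 114 and 40.6 to 53.6, 4 of 5 tested below 0 and none called). Most of the mesothelial sum was Krt19 (32.3 to 94.2 and 27.8 to 44.3 CPM), which is also a cholangiocyte marker here. Msln is on both the mesothelial and the portal fibroblast list. No marker on these lists was at 0 in every liver, and the part of the markers in the collagen results was not tested.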

How the data were processed

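The authors deposited raw read counts for 52459 genes in 6 livers, as whole numbers. The submitters' processing notes name HISAT2, HTSeq, DESeq2 and GRCm38. The annotation and the strand setting are not given in the sources used here. A second deposited table holds the authors' own comparison (mean, fold change, standard error, statistic and p-values) and was not used. Groups came from the sample labels.

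Counts were tested in R 4.3.3 with edgeR 4.0.16 (filterByExpr with a minimum count of 10, TMM, glmQLFit, glmQLFTest) over all 17032 genes that passed, with all 6 livers, no covariate and Benjamini-Hochberg adjustment. A gene with adjusted p under 0.05 was called. Standard errors were derived from the F statistics, and the biological coefficient of variation was 0.213. The code was tested on simulated data. Levels per kilobase used the GENCODE transcript with the longest reading frame (GRCm38), which need not be the annotation behind the counts. Promoters are from RefSeq (GRCm38.p6).

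Values by liver are given for members called, for the 3 of highest mean CPM in each class, and for the 3 highest and lowest log2 fold changes. Of the 5 lists of genes that act on collagen, those called are given, or otherwise the 2 of smallest p. Mia2, of the folding list, had no row. The collagen genes, classes and lists were chosen with earlier results of these data known. The alternatives were RLE, upper-quartile or no normalization factors, DESeq2 1.42.0, other filters, a robust dispersion and leaving out each liver. Leaving out sgCtrl 5.1 and sgPrdx2 3.2 together was chosen after seeing the data. The labels state biological replicates.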

Additional observations from a re-analysis of the deposited data

How the results depend on the processing

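No paired analysis was possible because the groups share no replicate numbers. The log2 fold changes of the 22 tested collagen genes described by liver kept their sign in each of the 14 alternative fits, other than Col4a3. The number of members called depended on the fit. Called lower, in place of 2 (1.54% of all tested genes), were 17 on total counts (17.9%), 9 with DESeq2 (5.9%) and 4 with no filter (484 of 28631 genes). Without sgCtrl 5.1 and sgPrdx2 3.2 there were 6 (1.61%). Without any single liver there were 0 to 1, where 0 to 295 genes of the whole table were called lower. At an adjusted p under 0.1 there were 7 lower and 1 higher, and the share of all genes at that threshold was not counted. DESeq2 called 1 higher (7.89% of all tested genes).

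For the lists that act on collagen, total counts gave 9 (folding), 6 (crosslinking), 8 (fibril partners), 7 (receptors) and 8 (breakdown) called genes, in a fit that called 19.1% of all tested genes in place of 3.33%, and DESeq2 1, 3 and 2 for the first 3 lists and 3 for breakdown, in a fit that called 13.8%. With no filter, in a fit that called 3.94%, folding had 1, crosslinking 1 and fibril partners 2. Without both end livers, in a fit that called 3.15%, crosslinking had 2, fibril partners 3 and receptors 1. Without any single liver, fibril partners ranged from 0 to 1, receptors from 0 to 1 and breakdown from 0 to 2. The class medians on total counts were -0.83 (fibrillar), -0.96 (basement membrane), -0.66 (beaded filament), -0.73 (FACIT) and 0.26 (Col18a1), and -0.78 over all members. Without both end livers, the fibrillar median was -0.62 and the basement membrane median -0.31 in place of -0.60, and the FACIT median ranged from -0.46 to 0.0617 without any single liver. Per kilobase, the basement membrane share was 13.4% against 8.58%, and the Col18a1 share 22.4% in sgCtrl livers. With 3 livers a group, the exact permutation tests could not reach p = 0.05.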
